A study of Homo sapiens with 4 samples.

Results

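Transcripts of 10 genes of the BCL2 family were followed in MOLM-14 cells, a cell line established from human acute myeloid leukaemia. The genes were the anti-apoptotic BCL2, MCL1 and BCL2L1, the effectors BAX and BAK1, and the BH3-only genes BCL2L11, BBC3, PMAIP1, BAD and BID. They were taken by symbol from the annotation of the array platform, and all 10 were found, each with 1 probe set, among 24241 named genes. RNA came from 4 cultures labelled as biological replicates, each measured on 1 Affymetrix whole-transcript array. Every culture received GSK621, an activator of the energy-sensing kinase AMPK, at 30 µM for 6 h. In 2 cultures nothing else was given, and in the other 2 the cells were first treated for 12 h with 10 nM rapamycin, which inhibits the growth kinase complex mTORC1. No group without GSK621 and none with rapamycin alone was analysed here, so each difference below is that of rapamycin followed by GSK621 against GSK621 alone. Rapamycin's own effect and a changed response to GSK621 cannot be told apart. All results come from 1 cell line.

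The BCL2 family decides whether the outer membrane of the mitochondrion is breached, the step that commits most cells to apoptosis. BAX and BAK1 form the pores, the anti-apoptotic proteins hold them in check, and the BH3-only proteins either occupy the anti-apoptotic proteins or activate the effectors directly. Myeloid leukaemia cells often depend on BCL2 or MCL1 for survival, and BH3-mimetic drugs target that dependence. Much of the family's control lies in protein turnover, cleavage and phosphorylation, which RNA levels do not show.

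The medians of the arrays were 5.37 to 5.43 (log2, as deposited), and the number of arrays limits the precision. Of 10 myeloid markers 8 were measured, PTPRC, SPI1, CEBPA, MPO, LYZ, FLT3, MEIS1 and ITGAM, and all 8 lay above the array median on each array, with a median between 9.21 and 9.29. Of the lymphoid markers 1 of 4 (CD79A) lay above it and of the erythroid markers 0 of 3. Markers of epithelial and stromal cells lay above it for 1 or 2 of 5 genes. The median log2 difference between the groups was 0.03 over the myeloid and 0.17 over the lymphoid markers. Of the 8 myeloid markers 6 did not overlap, 3 higher and 3 lower, beside 39.4% of all genes and 47.1% above the median level. They included FLT3 at 0.34, the 1 of the 8 with an unadjusted p under 0.05 (limma, adjusted p = 0.535), and MPO at −0.23, and the part of these shifts in the results was not tested. No detection calls were used, so a low value cannot be told from background. Fewer cells of a kind and less RNA per cell cannot be told apart in such bulk samples.

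Among the 10 genes, BCL2 had higher values in both cultures given rapamycin, and the BH3-only genes PMAIP1, BAD and BBC3 had lower values in both. MCL1, BCL2L1, BAX, BAK1, BCL2L11 and BID had overlapping arrays. The differences were small, from a log2 difference of −0.37 for PMAIP1 to 0.30 for BCL2, and the limma fit gave an adjusted p under 0.05 for 0 of the 10. The same fit gave such a p for 0 of the 24241 genes, which is 0% of them, with a smallest adjusted p of 0.172. An unadjusted p under 0.05 was found for 1 of the 10, BCL2, and for 8.51% of all genes (2064), 4.31% higher and 4.20% lower after rapamycin. When the genes above the median level, which include all 10, were fitted alone, 14.6% of them and 2 of the 10 had such a p. With limma under a variance trend and robust estimation 74 genes passed the adjusted threshold, and without variance moderation 1 gene did, in both settings with 0 of the 10 among them.

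The groups did not overlap for 4 of the 10 genes, beside 39.4% of all genes. By direction, 1 of the 10 was higher without overlap, beside 20.5% of all genes, and 3 were lower, beside 18.9%. The share in either direction, 4 of 10, is near that background. All 10 lay above the median level of all genes, and among the genes above it 47.1% did not overlap. Of the 10 genes, 8 had a lower mean after rapamycin, against 48.8% of all genes. The median log2 difference was −0.05 over the 10 and 0.00450 over all genes, and the median size of the difference, whatever its sign, was 0.0847 against 0.105.

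**Figure D1:**
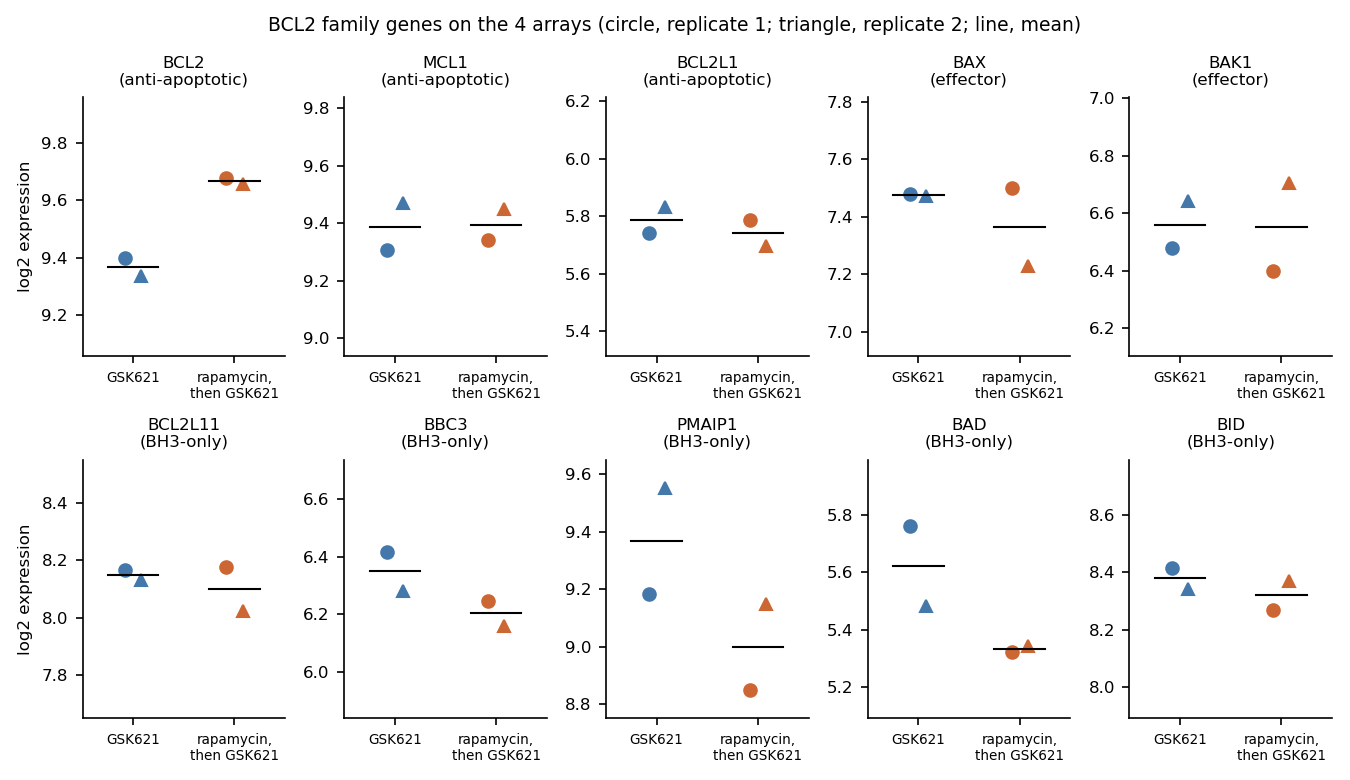
The log2 expression of the 10 BCL2 family genes is plotted on each array, with GSK621 cultures in blue, rapamycin then GSK621 cultures in orange, and a line at each group's mean. Every panel spans the same range of log2 units but is centred on its own gene, so distances between points, not heights, can be compared between panels. BCL2 stands higher in both rapamycin cultures, PMAIP1, BAD and BBC3 stand lower, and the other 6 genes overlap.

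BCL2, the founding member and the target of venetoclax, binds BH3-only proteins and so keeps BAX and BAK1 inactive. Its values were 9.40 and 9.34 after GSK621 and 9.68 and 9.66 after rapamycin and GSK621. The cultures of a group lay close together, and a gap of 0.26 separated the groups. The log2 difference was 0.30 ± 0.09 (SE), a 1.23-fold difference with a 95% interval of 1.05 to 1.45. The limma test gave an unadjusted p of 0.0214 and an adjusted p of 0.562, and 916 genes had a smaller p. Without 1 array the difference stayed between 0.27 and 0.33, while the unadjusted p was above 0.05 without GSK621 replicate 2 (0.0837), without replicate 1 of rapamycin then GSK621 (0.0828) and without its replicate 2 (0.0694).

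MCL1, a short-lived anti-apoptotic protein on which many myeloid cells rely, had values of 9.31 and 9.47 after GSK621 and of 9.34 and 9.45 after rapamycin and GSK621. Both groups covered nearly the same range. Its log2 difference was 0.01 ± 0.11 (adjusted p = 0.992), and the 95% interval ran from a fold of 0.83 to 1.21. The sign turned when GSK621 replicate 1 was left out (−0.07), and when replicate 2 of rapamycin then GSK621 was (−0.05). BCL2L1, which encodes BCL-XL, had 5.74 and 5.83 against 5.79 and 5.70. These arrays overlapped, with a log2 difference of −0.05 ± 0.10, an adjusted p of 0.929 and a fold interval of 0.82 to 1.15. With 1 array left out the difference ran from −0.09 to −0.000105. The mean level of BCL2L1 lay close to the median of all genes, 5.41.

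The effectors both had overlapping arrays. BAX, which moves from the cytosol into the mitochondrial membrane when activated, had values of 7.48 and 7.47 after GSK621 and of 7.50 and 7.23 after rapamycin and GSK621. Replicate 2 of rapamycin then GSK621 was the low array, and without it the log2 difference of −0.11 ± 0.12 (adjusted p = 0.846) came to 0.02. BAK1, which resides in that membrane, had 6.48 and 6.64 against 6.40 and 6.71. Replicate 2 was the higher array in both groups, and the log2 difference was −0.01 ± 0.14 (adjusted p = 0.992), with a fold interval of 0.78 to 1.27. Its sign turned when GSK621 replicate 2 was left out (0.07), and when replicate 1 of rapamycin then GSK621 was (0.15).

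The largest difference among the 10 was that of PMAIP1, which encodes NOXA, a BH3-only protein that binds MCL1 and favours its degradation. PMAIP1 is transcribed in response to ATF4 of the integrated stress response, among other signals. The transcript of ATF4 was at 9.53 and 9.69 after GSK621 and at 9.52 and 9.69 after rapamycin and GSK621 (limma, adjusted p = 0.997). ATF4 protein was not measured here, and whether ATF4 had a part in the PMAIP1 values was not tested. The values of PMAIP1 were 9.18 and 9.55 after GSK621 and 8.85 and 9.15 after rapamycin and GSK621. The groups were separated by a gap of 0.03, far less than the distance between the cultures of either group, and replicate 2 was the higher array in both. The log2 difference was −0.37 ± 0.17, a fold of 0.78 with a 95% interval of 0.58 to 1.04 (unadjusted p = 0.0805, adjusted p = 0.635). It came to −0.55 without GSK621 replicate 1, with an unadjusted p of 0.0273 and an adjusted p of 0.616, and to −0.18 without GSK621 replicate 2. Without replicate 1 of rapamycin then GSK621 it came to −0.22, and without replicate 2 to −0.52.

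BAD, a BH3-only protein whose phosphorylation by survival kinases keeps it bound to 14-3-3 proteins and inactive, had values of 5.76 and 5.48 after GSK621 and of 5.32 and 5.34 after rapamycin and GSK621. The rapamycin cultures were close to each other and below both GSK621 cultures, of which replicate 1 was the higher. The log2 difference was −0.29 ± 0.12, a fold of 0.82 with a 95% interval of 0.66 to 1.02 (unadjusted p = 0.0656, adjusted p = 0.615). It came to −0.15 without GSK621 replicate 1 and to −0.43 without GSK621 replicate 2, where the unadjusted p was 0.0201 and the adjusted p 0.630. The gene was dim, with a mean level of 5.48 against a median of 5.41 over all genes.

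BBC3 encodes PUMA, a BH3-only protein that binds all anti-apoptotic members. It had values of 6.42 and 6.28 after GSK621 and of 6.25 and 6.16 after rapamycin and GSK621. The groups were separated by a gap of 0.04 only, and the log2 difference was −0.15 ± 0.10 (adjusted p = 0.745). It came to −0.08 without GSK621 replicate 1 and to −0.21 without GSK621 replicate 2. BCL2L11, which encodes BIM and is a target of FOXO transcription factors, had 8.17 and 8.13 against 8.18 and 8.02. Its arrays overlapped, with a log2 difference of −0.05 ± 0.10 (adjusted p = 0.923) and a fold interval of 0.81 to 1.16. Without replicate 2 of rapamycin then GSK621, its lowest array, the difference turned to 0.03.

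BID links death receptors to mitochondria, since caspase-8 cleaves it into an active form. Its values were 8.41 and 8.34 after GSK621 and 8.27 and 8.37 after rapamycin and GSK621. The arrays overlapped, and the log2 difference was −0.06 ± 0.10 (adjusted p = 0.901), or −0.11 to −0.01 with 1 array left out.

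**Figure D2:**
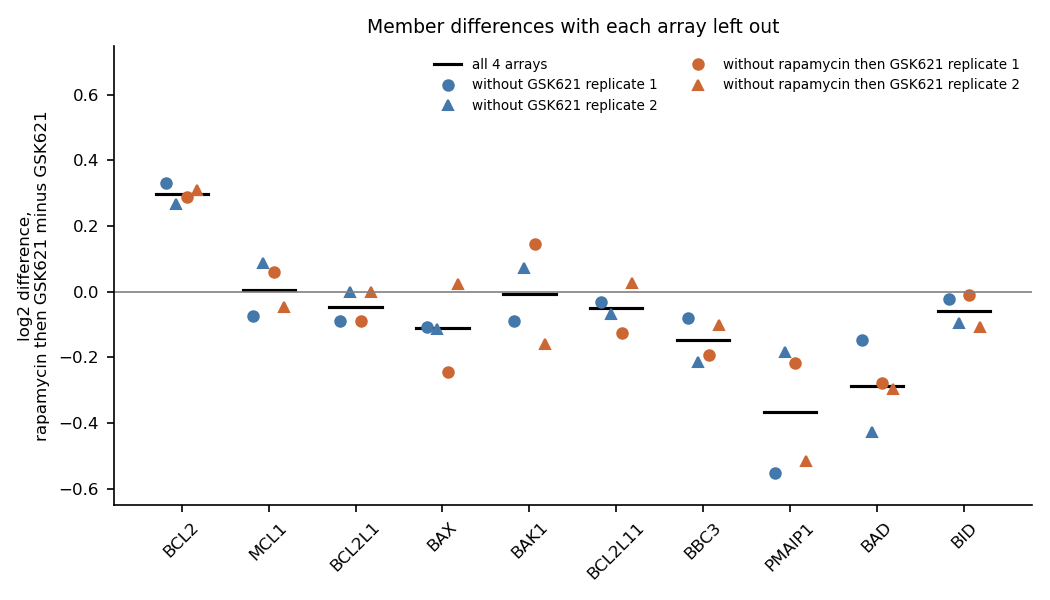
Each mark gives the log2 difference (rapamycin then GSK621 minus GSK621) of a BCL2 family gene with 1 array left out, and the black line gives it with all 4 arrays. BCL2 stays between 0.27 and 0.33, PMAIP1 spreads from −0.55 to −0.18, and the signs of MCL1, BAX, BAK1 and BCL2L11 turn when an array is left out. For BCL2, PMAIP1, BAD and BBC3, whose groups did not overlap, no such turn was possible.

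Promoter letters are shown for the 4 genes whose arrays did not overlap, from RefSeq on build GRCh38.p14. They are the 250 bases before an annotated start, on the strand of the gene. BCL2 (minus strand) is at chr18:63319770-63320019, PMAIP1 (plus) at chr18:59899746-59899995, BAD (minus, the first of 2 annotated starts) at chr11:64284705-64284954 and BBC3 (minus) at chr19:47232668-47232917. Capitals mark TGACG, a core of the sites of ATF and CREB factors, or CACGTG, the E-box of MYC and its relatives, each searched on both strands after the values had been seen.
BCL2: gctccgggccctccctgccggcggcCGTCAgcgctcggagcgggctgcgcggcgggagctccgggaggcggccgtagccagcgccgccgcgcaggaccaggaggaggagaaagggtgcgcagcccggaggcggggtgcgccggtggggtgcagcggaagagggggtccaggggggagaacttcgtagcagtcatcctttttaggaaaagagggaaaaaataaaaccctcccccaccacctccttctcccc
PMAIP1: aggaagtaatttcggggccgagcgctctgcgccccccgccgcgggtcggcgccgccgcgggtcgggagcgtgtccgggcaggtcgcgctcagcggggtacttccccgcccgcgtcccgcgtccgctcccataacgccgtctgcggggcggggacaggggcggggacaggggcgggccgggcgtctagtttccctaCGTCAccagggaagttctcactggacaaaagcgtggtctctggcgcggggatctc
BAD: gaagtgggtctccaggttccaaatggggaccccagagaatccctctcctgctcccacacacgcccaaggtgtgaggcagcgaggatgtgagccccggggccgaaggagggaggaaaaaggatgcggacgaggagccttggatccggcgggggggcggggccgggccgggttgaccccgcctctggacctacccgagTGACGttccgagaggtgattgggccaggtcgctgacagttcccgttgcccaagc
BBC3: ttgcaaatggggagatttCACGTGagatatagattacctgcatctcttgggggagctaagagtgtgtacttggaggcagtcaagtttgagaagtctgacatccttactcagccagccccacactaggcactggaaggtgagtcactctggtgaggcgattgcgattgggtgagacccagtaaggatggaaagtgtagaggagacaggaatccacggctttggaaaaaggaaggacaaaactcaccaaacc

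TGACG or its reverse complement began 225 bases before the start in BCL2, 55 bases before it in PMAIP1 and 54 bases before it in BAD, and was not in the window of BBC3. The match in PMAIP1 and that in BCL2 lay on the opposite strand. This core stood before BCL2, which had higher values, and before PMAIP1 and BAD, which had lower ones. Its part in these differences was not tested. In all the core was in 6 of the 15 windows of the 9 genes with an entry (those of BCL2, BCL2L1, PMAIP1, BAX and BAD), and in 21.2% of 35116 windows of that length. Windows of a gene can overlap, and those of BAD hold the same TGACG, so the window counts take some sites more than once. CACGTG was in BBC3 at 232 bases, in overlapping windows of BID that hold the same site, and 4 times in BAX, where the copy at 138 bases overlaps a TGACG. It was in 4 of the 15 windows, against 6.35% of all windows. TGTTTAC, a FOXO core, was in BCL2L11 alone of the 9, 223 bases before the start on the opposite strand, and so in 1 of the 15 windows, against 2.98% of all windows. These are matches of letters, and binding was not measured here. MCL1 had no entry.

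The family holds further genes of the same 3 roles, of which 7 were measured. The anti-apoptotic BCL2L2, BCL2A1 and BCL2L10 all had higher means after rapamycin, with log2 differences of 0.15 ± 0.09, 0.16 ± 0.14 and 0.09 ± 0.12. BCL2L2, which encodes BCL-W, was at 8.06 and 8.10 against 8.20 and 8.27, without overlap. BCL2A1, an NF-κB target of myeloid cells, was at 7.51 and 7.16 against 7.54 and 7.46, with overlap. The effector-like BOK had 0.18 ± 0.16, and from 0.02 to 0.35 with 1 array left out. The BH3-only genes HRK, BMF and BIK had 0.02 ± 0.10, 0.01 ± 0.09 and 0.02 ± 0.14, each with overlapping arrays. Adjusted p values of the 7 ran from 0.715 for BCL2L2 to 0.984 for BIK.

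Over the 17 genes of both sets, 9 had higher and 8 had lower means, with a median log2 difference of 0.00662. All 5 BH3-only genes of the first set had lower means, with a median of −0.15, and all 3 of the further set had higher means, with a median of 0.02. Each of those 3 differences was far below its SE and turned its sign when an array was left out. Of the 6 anti-apoptotic genes, 5 had higher means and BCL2L1 a lower one, beside 51.2% of all genes with a higher mean. Among those 5, MCL1, BCL2A1 and BCL2L10 turned their sign when an array was left out, as did BCL2L11 among the BH3-only genes. The groups did not overlap for 5 of the 17, a share of 29.4%, beside the 39.4% of all genes.

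**Figure D3:**
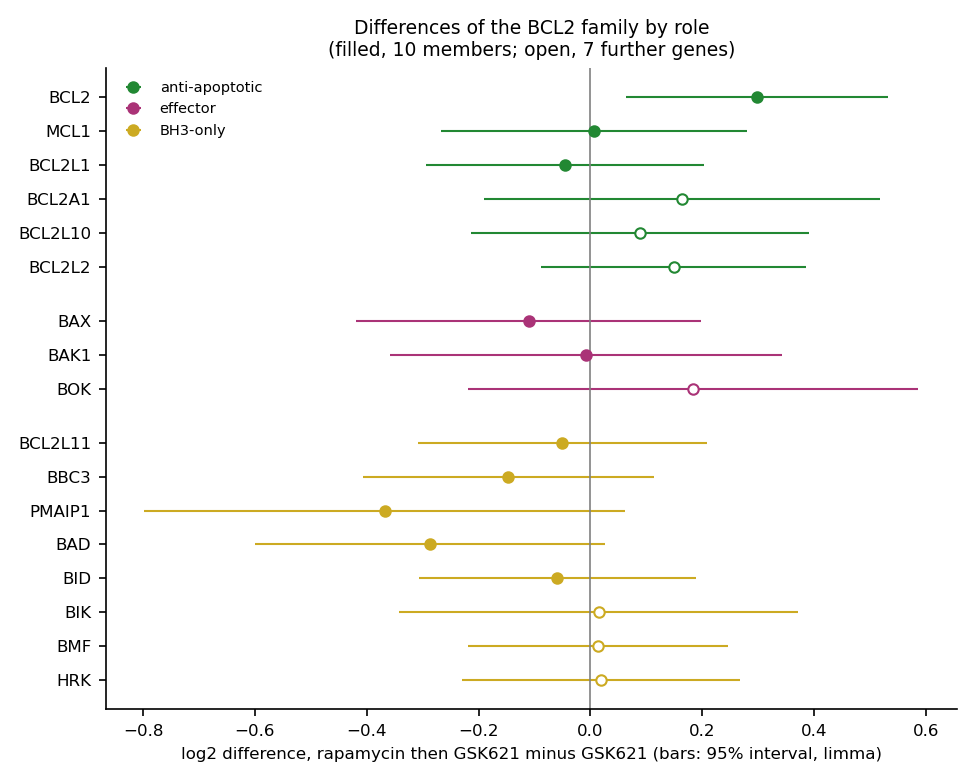
Points give the log2 difference, rapamycin then GSK621 minus GSK621, of 17 BCL2 family genes ordered by role, and bars give the 95% interval of the limma fit. The interval of BCL2 (0.06 to 0.53) lies above 0, and those of the other 16 genes span 0.

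The steps before and after the family were read from 7 further lists, in which 0 genes had an adjusted p under 0.05. Among BCL2-like genes with other roles, 1 of 7 had an unadjusted p under 0.05, beside 8.51% of all genes. It was BNIP3, a mitophagy receptor with a BH3-like motif and a target of HIF1. BNIP3 was at 10.81 and 10.68 after GSK621 and at 10.06 and 10.31 after rapamycin and GSK621, with a log2 difference of −0.56 ± 0.13 (adjusted p = 0.446). Its relative BNIP3L had −0.16 ± 0.13 with overlapping arrays, and BCL2L15, a dim gene, had 0.07 ± 0.09. The list's median was −0.06.

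Downstream of the mitochondrion, 2 of 8 measured apoptosome and caspase genes had an unadjusted p under 0.05, both with higher values after rapamycin. Beside them stand 8.51% of all genes in either direction and 4.31% higher. All 8 lay above the median level of all genes, and 14.6% of the genes above it had such a p when fitted alone. HTRA2, a mitochondrial protease that is released with cytochrome c, was at 7.90 and 7.90 against 8.20 and 8.22, a log2 difference of 0.31 ± 0.09 (adjusted p = 0.553). CASP2, an initiator caspase that can cleave BID, had 0.26 ± 0.09. Its unadjusted p of 0.0363 came to 0.0526 with the replicate number as a block and to between 0.0798 and 0.142 with 1 array left out. The executioner caspase CASP6 had −0.23 ± 0.13, or −0.35 to −0.11 with 1 array left out. Of the inhibitor of apoptosis proteins 0 of 5 measured had such a p, beside the same 8.51%. XIAP, which blocks caspases directly, had −0.16 ± 0.09, BIRC6 had 0.13 ± 0.09, and BIRC5, the mitotic protein survivin, had 0.06 ± 0.12.

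Outer membrane partners and mitochondrial shape proteins had lower means in 5 of 6 genes, beside 48.8% of all genes, with a median log2 difference of −0.09. An unadjusted p under 0.05 was found for 0 of the 6, beside 8.51% of all genes. VDAC2, the channel that holds BAK1 and BAX at the membrane, was at 6.87 and 6.87 against 6.71 and 6.70, and had −0.17 ± 0.09. VDAC1 had −0.31 ± 0.21, which came to −0.00491 without replicate 2 of rapamycin then GSK621, its 1 low array, and VDAC3 had −0.09 ± 0.09. Of the death receptor genes 0 of 9 measured had such a p. TNFRSF10B, the TRAIL receptor DR5, had −0.24 ± 0.10 and FAS had −0.24 ± 0.10, both with lower values in both rapamycin cultures. CFLAR, which blocks caspase-8 at these receptors, had 0.17 ± 0.10, with higher values in both.

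Among 15 kinases, ubiquitin enzymes and binding partners that act on the family proteins, 3 had an unadjusted p under 0.05, beside 8.51% of all genes. Of these 2 were higher and 1 lower, beside 4.31% and 4.20%, and the list's median was 0.08. All 15 genes, and the 14 transcription factors below, lay above the median level of all genes. When the genes above that level were fitted alone, 14.6% of them had such a p. PIM1, a kinase that phosphorylates BAD, was at 8.16 and 8.17 against 9.57 and 9.52, a log2 difference of 1.38 ± 0.09 (adjusted p = 0.172). That adjusted p was under 0.05 among genes above the median level alone (0.0341) and with a variance trend and robust estimation (0.00112), but was 0.437 with the replicate number as a block, 0.389 without variance moderation and 0.536 to 0.809 with 1 array left out. RPS6KA1, another BAD kinase, had 0.25 ± 0.09, and DYNLL1, a dynein light chain that binds BIM, had −0.28 ± 0.09. Among 14 measured transcription factors 3 had such a p, beside the same shares, 2 higher and 1 lower, with a median of −0.01. DDIT3, which encodes the stress factor CHOP, was at 8.44 and 8.75 against 8.22 and 7.98, a log2 difference of −0.50 ± 0.15 (adjusted p = 0.553). The transcription factor TP73 had 0.31 ± 0.10, and MYC had 0.28 ± 0.09. Of the 9 genes of these lists with an unadjusted p under 0.05, PIM1 alone kept it under each of the 12 other settings, and that of RPS6KA1 was 0.0574 with the replicate number as a block. PIM1 had the largest difference in these lists, ahead of BNIP3. PIM1 also had the smallest unadjusted p of all 24241 genes (limma), and the lists were chosen with earlier results known. Among the 10 family genes, 5.30% of all genes showed a larger difference, whatever its sign, than PMAIP1, 9.40% than BCL2 and 10.4% than BAD. For the remaining members that share ran from 35.8% (BBC3) to 96.5% (MCL1).

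**Figure D4:**
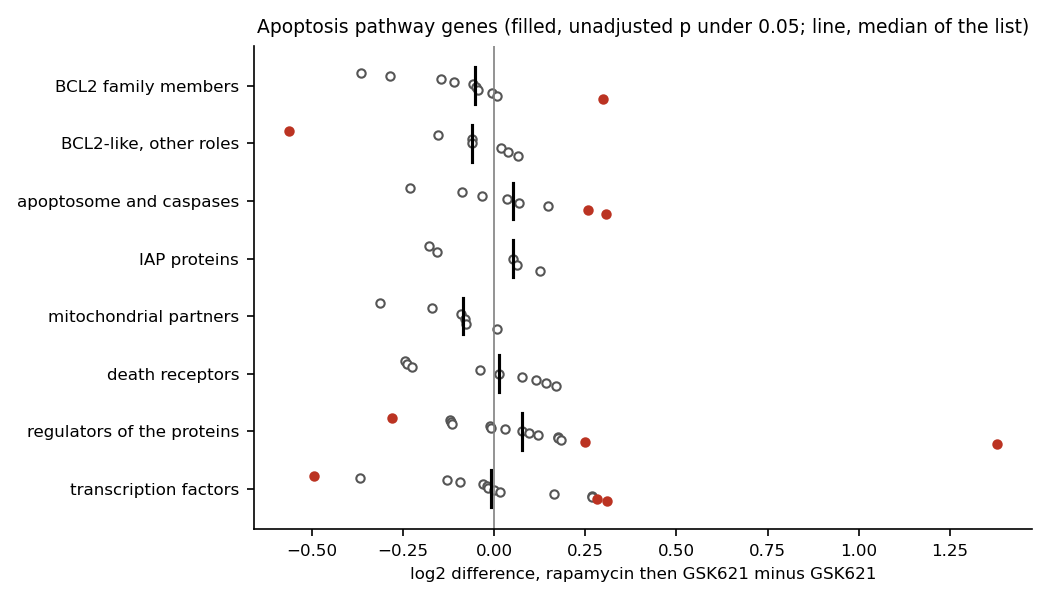
Points give the log2 difference, rapamycin then GSK621 minus GSK621, of each measured gene of the 10 BCL2 family members and of 7 lists of apoptosis pathway genes, filled where the unadjusted limma p was under 0.05, with a black line at each list's median. PIM1, at 1.38, stands alone on the right, and list medians lie between −0.09 and 0.08.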

How the data were processed

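Values for 4 arrays were read as the authors deposited them, on what was taken as a log2 scale with 1 value per gene-level probe set. The sources used here do not give the log base, background correction, normalization or probe summary. The base was inferred from the range of the values, since a natural log would put the highest signal at 585694, over the 65535 of a 16-bit scanner. R 2.15.3 and Partek are named, without roles, per the submitters' processing notes. Rows were named through the platform annotation: of 25582 probe sets, 24244 had a symbol and 1338 had none, and for 3 genes the brighter probe set was kept.

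Groups and replicate numbers came from sample titles. The difference was fitted over 24241 genes with limma 3.58.1 in R 4.3.3, two-sided, moderated, with Benjamini-Hochberg adjustment over all genes. Degrees of freedom were 2 (residual) and 3.39 (prior). With 2 arrays a group, exact permutation reaches no two-sided p below 0.333. On simulated data of this comparison over 24241 genes, 59% of 100 genes changed by 1 (log2) and 97% of 100 changed by 2 were recovered, with 11 false calls. Changes as small as those of the 10 members, −0.37 to 0.30, were not simulated.

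The members and lists were chosen with earlier results of these data known. All 10 members and 7 further family genes are named, and from each other list the 3 genes with the smallest p. All 10 members passed a filter at the median level. CD79A and ATF4 were named after their values were seen, as were the promoter motifs. Nothing in the labels ties same-numbered cultures together.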

Additional observations from a re-analysis of the deposited data

How the results depend on the processing

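Of 120 values for the 10 members under 12 other settings, 114 kept their sign, 6 turned, and 0 reached an adjusted p under 0.05 (lowest 0.122). The replicate block, the variance trend and the fit without moderation left each member's difference as in the main fit. So did probe set means and fits of brighter or protein-coding genes alone, and under all of these the signs were fixed in advance. BCL2, BCL2L1, BBC3, PMAIP1, BAD and BID kept their sign in all 12. For BCL2, BBC3, PMAIP1 and BAD, whose groups did not overlap, leaving out 1 array could not turn the sign. For BCL2L1 the difference came to −0.000105 without replicate 2 of rapamycin then GSK621, so its sign there has little meaning. Signs that turned did so with 1 array left out, where MCL1 ranged from −0.0747 to 0.0879, BCL2L11 from −0.126 to 0.0261, BAX from −0.245 to 0.0245, BAK1 from −0.161 to 0.145, BCL2A1 from −0.00779 to 0.336, BCL2L10 from −0.0354 to 0.214, BMF from −0.00894 to 0.0368, BIK from −0.118 to 0.149, HRK from −0.0438 to 0.0826 and BIRC5 from −0.0776 to 0.201. BMF also turned with quantile normalization (−0.00906). The cause was not tested in any of these. Genes past the adjusted threshold numbered 3 among genes above the median level, 74 with a variance trend and robust estimation, 1 without moderation, and 0 with each array left out. Members with an unadjusted p under 0.05 numbered 1 (BCL2), but 2 with the replicate block, with a variance trend and robust estimation (both BCL2 and PMAIP1) and among brighter genes (BCL2 and BAD), and 0 to 2 with 1 array left out. Leaving out an array moved the members' median from −0.05 to between −0.108 and −0.0750, and members without overlap from 4 to between 6 and 8, where fewer arrays overlap less (68.7% to 70.7% of all genes). A lone array is then assumed to vary like the other group. Under the replicate block PMAIP1 kept −0.37 with an unadjusted p of 0.0161 (adjusted p = 0.522). Deviations of same-numbered arrays correlated at 0.0923 over genes, which are not independent, and the numbers are not known to pair the cultures. With 2 arrays per group, differences under the size of the intervals were not detectable, and signal over background was not known.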

Other observations

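Some members differed between replicate numbers as much as between treatments. PMAIP1 was higher in replicate 2 by 0.37 (log2) after GSK621 and by 0.30 after rapamycin and GSK621, BAK1 by 0.16 and 0.31, and MCL1 by 0.16 and 0.11. BBC3 was lower in replicate 2, with −0.14 and −0.09. Of the 10 members, 7 differed in the same direction in both groups, beside 53.2% of all genes. What the replicate numbers stand for is not given in the labels, and this was not tested.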
